A study of Mus musculus with 8 samples.

Results

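Colon of mice without functional interleukin 10 was compared between 2 inbred strains. The comparison set the 2 pools of C3H/HeJBir mice that carry the targeted Il10 allele Il10tm1Cgn against the 2 pools of C57BL/6J mice that carry the same allele. These 4 pools were taken by their titles, out of 8 pools in the series, and are called Il10-null here. The other 4 pools were wild type, 2 of each strain, and served as the strain comparison without the allele. Each pool mixed equal amounts of RNA, 7 µg per animal, from whole colon. The C57BL/6J Il10-null pools held 5 animals each, and those of C3H/HeJBir Il10-null held 5 in sample 1 and 4 in sample 2. The wild-type pools held 5 animals in C57BL/6J and 4 in C3H/HeJBir. An age of 4 weeks is stated for 1 pool, sample 2 of C57BL/6J wild type, and the sources used here give no other age, no sex and no generation of backcrossing. Since each pool is 1 array, the spread within a group is the spread between pools, and the animals inside a pool cannot be told apart.

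Interleukin 10 is a cytokine through which T cells and macrophages hold back inflammatory responses, and mice that lack it can develop colitis that depends on the intestinal bacteria. The severity differs between inbred backgrounds, and C3H/HeJBir is known as a background with severe disease and C57BL/6J as one with milder disease. C3H/HeJ mice, from which C3H/HeJBir derives, carry a Tlr4 that responds poorly to lipopolysaccharide, and C57BL/6J mice carry a defective Pla2g2a and a deletion in Nnt. The comparison therefore addresses which colon transcripts differ between a sensitive and a less sensitive background when the allele is the same.

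Values are deposited intensities of Affymetrix MG_U74Av2 probe sets on a linear scale, 1 array per pool, given below in the order sample 1, sample 2, with C57BL/6J before C3H/HeJBir. Median intensity ran from 50.1 to 62.2 per array over 12422 probe sets. Log2 differences are C3H/HeJBir minus C57BL/6J, on the scale of log2(intensity + 11.07), with the SE of a limma fit over all 8 pools, and a fold is the same difference on the linear scale, which understates changes of dim probe sets. Both Il10-null sample 1 pools were hybridised on 1 day and both sample 2 pools on another, so that each sample number gives a strain difference within 1 hybridisation day. The sample 1 C3H/HeJBir Il10-null array stood apart, since its Spearman coefficients with the other arrays averaged 0.915, and those of the remaining 7 arrays 0.931 to 0.945. The probe set of Il10, the targeted gene, read 51.7 and 22 in C57BL/6J Il10-null and 28.3 and 35.4 in C3H/HeJBir Il10-null, where the strains overlapped, against 9.70 and 7.34 in C57BL/6J wild type and 5.43 and 10.9 in C3H/HeJBir wild type. All 4 pools labelled Il10-null thus lay above all 4 labelled wild type, the opposite of the order that a loss of the transcript would give. The sources used here do not place its probes relative to the targeted sequence, and the probe set fell below the filter and was not tested, so the genotypes rest on the labels alone. Xist, the RNA of the inactive X chromosome, read 255 and 4.08 in the Il10-null pools of C57BL/6J and 243 and 12.9 in those of C3H/HeJBir. The sample numbers thus differed in Xist far more than the strains did, and Eif2s3y, on the Y chromosome, read 113 and 263 against 242 and 391. In wild type Xist read 452 and 2.84 against 327 and 7.13, and Eif2s3y 39.6 and 256 against 318 and 411. Sample number and hybridisation day coincided in the Il10-null pools. The part of the sexes of the animals in the differences between pairs and strains was not tested. Defining markers of colon were bright in all 4 Il10-null pools: Tff3 of goblet cells read 7088 to 7901 and Car1 of absorptive cells 6956 to 8352, while Lct of small intestine read 16.1 to 37.6.

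In Il10-null colon, 22 of 7453 tested probe sets differed between the strains at an adjusted p under 0.05, which is 0.295% of them. Of these, 12 were higher in C3H/HeJBir (0.161%) and 10 were lower (0.134%). They named 17 genes through 20 probe sets, and 2 probe sets carried no gene symbol. The higher genes included Pla2g2a and Mptx1 of the antimicrobial list, Slpi and Mmp7 of the proteases and inhibitors, Cd14 of the microbe sensing list and the interferon-inducible Gbp2b and Ifi202b, and the lower genes were led by the sialyltransferase St3gal4. At an unadjusted p under 0.05 the counts were 151 higher (2.03%) and 234 lower (3.14%), together 385 or 5.17%. The median log2 difference over all tested probe sets was -0.02, and 47.0% of them were higher in C3H/HeJBir.

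All 22 called probe sets had pools that did not overlap between the strains, as did 27.2% of all tested probe sets. Each of the 22 also differed by more than 1 on the log2 scale in both the sample 1 and the sample 2 pair, in the same direction, and over all tested probe sets 98 did so, 36 higher and 62 lower. The single pairs went past that limit for 771 probe sets in the sample 1 pair and 245 in the sample 2 pair. Across probe sets, which share the arrays and are no independent replicates, the log2 differences of the pairs had an SD of 0.67 for sample 1 and 0.44 for sample 2, and a Pearson r of 0.147 between pairs. The count of calls depended on single pools: it was 4 without the C57BL/6J sample 2 pool, 8 without the C57BL/6J sample 1 pool, 15 without the C3H/HeJBir sample 1 pool and 34 without the C3H/HeJBir sample 2 pool. The 4 calls left without the C57BL/6J sample 2 pool were 97713_at of Pdxdc1, 95936_at, Mmp7 and 161650_at of Slpi. Without the C57BL/6J sample 1 pool the 8 were 97713_at and 160163_at of Pdxdc1, 95936_at, Mmp7, Mtmr7, St3gal4, Snhg6 and Cap1. Without the C3H/HeJBir sample 1 pool 12 of the 22 passed, and without the C3H/HeJBir sample 2 pool 18 did. Over the alternatives, the least often passing calls were Ergic1 (4 of 20), Hebp1 (5 of 20), Rgs5 (9 of 20), and Gbp2b and 94312_at of Pdxdc1 (10 of 21 each). With the hybridisation day as a block 6 probe sets passed, and 5 of them were among the 22, namely 97713_at of Pdxdc1, 95936_at, St3gal4, Mmp7 and Mtmr7, and the sixth was Cbr3.

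**Figure D1:**
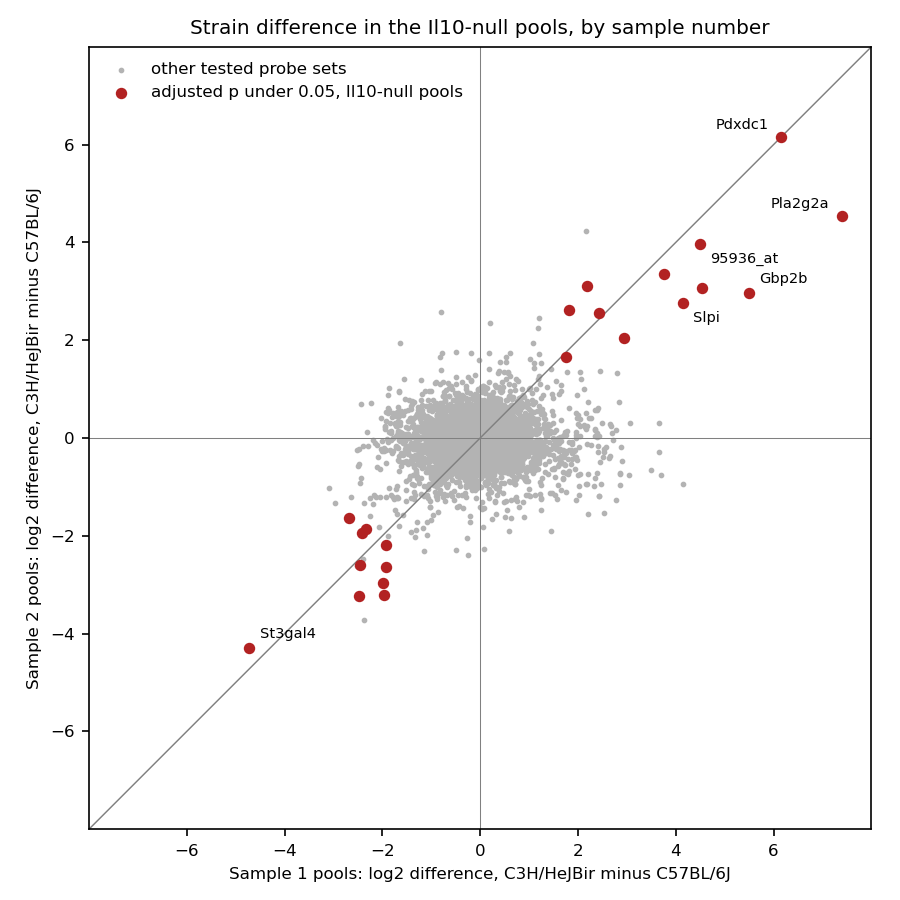
Log2 strain difference in the Il10-null sample 1 pools (x axis) against that in the sample 2 pools (y axis), C3H/HeJBir minus C57BL/6J on the log2(intensity + 11.07) scale, 1 point per tested probe set, with a line of equality. The 22 called probe sets (red) lie past 1 in the same direction on both axes, while the grey cloud is wider along the sample 1 axis (SD 0.67) than along the sample 2 axis (SD 0.44).

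Pla2g2a, a secreted phospholipase that attacks bacterial membranes, read 21.1 and 44.9 in the C57BL/6J pools without Il10 and 5446 and 1283 in the C3H/HeJBir ones. Both C3H/HeJBir pools lay far above both C57BL/6J pools, and the sample 1 C3H/HeJBir pool was the highest. The log2 difference was 5.97 ± 0.74 (62.6-fold, limma adjusted p = 0.0186), with 7.40 in the sample 1 pair and 4.53 in the sample 2 pair. RefSeq lists Pla2g2a of the C57BL/6J assembly as a transcribed pseudogene. Pla2g2a did not pass without the sample 1 C3H/HeJBir pool or without either C57BL/6J pool.

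Mptx1, which encodes a mucosal pentraxin, read 549 and 614 in C57BL/6J and 2553 and 5389 in C3H/HeJBir, where the sample 2 pool was the higher (log2 2.65 ± 0.34, 6.29-fold, limma adjusted p = 0.0192). Cd14, the co-receptor that presents lipopolysaccharide to Tlr4, read 485 and 556 against 3830 and 2338 (log2 2.50 ± 0.28, 5.66-fold, adjusted p = 0.0112). For Cd14 the pools within a strain lay close together compared with the gap between strains, with log2 differences of 2.95 and 2.05 in the pairs. Cd14 and Mptx1 did not pass without either C57BL/6J pool, and Tlr4 itself is not analysed here. Retnlb, a resistin-like protein of goblet cells, read 1572 and 4033 against 10963 and 10101, which did not pass (log2 2.06 ± 0.42, adjusted p = 0.136).

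The protease inhibitor Slpi and the metalloproteinase Mmp7 were both higher in C3H/HeJBir. Slpi restrains neutrophil elastase at mucosal surfaces, and its probe set 92858_at read 141 and 174 against 3541 and 1537 (log2 3.80 ± 0.38, 14.0-fold, limma adjusted p = 0.00604). The probe set 161650_at of Slpi gave a log2 difference of 3.45 ± 0.34 (adjusted p = 0.00595). Its other probe sets, 162329_r_at and 162333_r_at, gave 0.43 ± 0.45 and 0.50 ± 0.34 and did not pass, so the probe sets of Slpi disagree in size. Mmp7, matrilysin, which in the mouse intestine activates defensins, read 12.4 and 12.1 against 308 and 225. Its pools agreed closely within each strain, and the difference was 3.56 ± 0.28 on the log2 scale (11.8-fold, adjusted p = 0.00271).

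Of the interferon-inducible genes, 2 were higher in C3H/HeJBir at the threshold. Gbp2b, a guanylate-binding GTPase that interferon gamma induces, read 6.08 and 25.4 against 766 and 272 (log2 4.23 ± 0.56, 18.8-fold, limma adjusted p = 0.0217). The pools of C3H/HeJBir differed from each other, with the sample 1 pool the higher, and with the replicate block the adjusted p of Gbp2b was 0.0518. Ifi202b, an Ifi200 family protein that binds DNA, read 14.8 and 5.60 against 128 and 87.0 (log2 2.49 ± 0.31, 5.63-fold, adjusted p = 0.0188). Gbp2b and Ifi202b did not pass without the sample 1 C3H/HeJBir pool or without either C57BL/6J pool. The related Ifi204 read 4.09 and 66.0 against 180 and 83.9 and did not pass (adjusted p = 0.702), since 1 C57BL/6J pool lay near the C3H/HeJBir pools.

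Promoter windows of 250 bases before to 50 after an annotated start were used here for 13 of the 17 called genes. They came from RefSeq's mouse assembly GRCm38.p6, which is the C57BL/6J genome. No window was used for Cd14, Pla2g2a, Mtmr7 or Snhg6, and the count of 13 does not tell which windows RefSeq holds. The windows of genes picked for display are shown, Mmp7, Gbp2b and Slpi from the higher side and St3gal4 from the lower side, with motif matches in capitals. Those of the higher side are not the genes with the largest differences. Searched on both strands were the TATA box TATAAA, a loose AP-1 pattern TGANTCA that allows any middle base, and the interferon-gamma-activated element TTCNNNGAA. For Mmp7 the first of its windows is given. The windows lie at chr9:7691840-7692139 (Mmp7, plus strand), chr3:142594597-142594896 (Gbp2b, plus strand), chr2:164356458-164356757 (Slpi, minus strand) and chr9:35116815-35117114 (St3gal4, minus strand).
Mmp7: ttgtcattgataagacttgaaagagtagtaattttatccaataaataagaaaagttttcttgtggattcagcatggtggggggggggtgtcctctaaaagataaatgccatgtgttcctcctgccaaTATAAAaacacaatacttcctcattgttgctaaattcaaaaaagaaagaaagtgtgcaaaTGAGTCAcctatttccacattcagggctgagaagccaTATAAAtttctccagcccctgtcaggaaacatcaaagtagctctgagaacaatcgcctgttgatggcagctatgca
Gbp2b: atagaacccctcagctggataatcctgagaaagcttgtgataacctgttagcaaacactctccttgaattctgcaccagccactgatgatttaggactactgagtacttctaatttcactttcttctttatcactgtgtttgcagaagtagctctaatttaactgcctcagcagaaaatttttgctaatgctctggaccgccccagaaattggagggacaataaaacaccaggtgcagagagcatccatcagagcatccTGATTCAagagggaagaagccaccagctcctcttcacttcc
Slpi: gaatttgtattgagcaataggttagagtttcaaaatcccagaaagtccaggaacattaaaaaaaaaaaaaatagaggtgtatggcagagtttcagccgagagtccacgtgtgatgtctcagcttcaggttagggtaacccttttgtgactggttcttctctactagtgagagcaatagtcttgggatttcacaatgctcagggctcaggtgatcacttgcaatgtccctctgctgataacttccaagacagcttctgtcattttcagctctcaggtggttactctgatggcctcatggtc
St3gal4: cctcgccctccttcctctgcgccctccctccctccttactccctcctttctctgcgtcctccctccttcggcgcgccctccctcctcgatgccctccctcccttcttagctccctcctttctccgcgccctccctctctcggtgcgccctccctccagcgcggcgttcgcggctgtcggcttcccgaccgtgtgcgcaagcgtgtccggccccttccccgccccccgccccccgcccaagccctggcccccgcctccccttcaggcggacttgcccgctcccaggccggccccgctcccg

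The Mmp7 window holds TATAAA at positions -123 and -26 from the start and TGAGTCA, a match of the AP-1 pattern, at -63. The Gbp2b window holds TGATTCA, a match of the same loose pattern, at 10. The windows of Slpi and St3gal4 hold none of the 3 letter patterns. Among the 13 first windows, 3 hold TATAAA, 2 the AP-1 pattern and 3 the interferon-gamma-activated pattern. Among the 32851 windows of 300 bases searched for comparison, 13.6%, 7.81% and 8.30% do. Those can include several windows of a gene, unlike the 13. The C3H/HeJBir sequences of these windows were not analysed here.

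The probe sets of Pdxdc1, which encodes a pyridoxal-dependent decarboxylase-like protein, went in both directions. The probe set 97713_at read 15.2 and 23.3 in C57BL/6J and 1854 and 2437 in C3H/HeJBir, the largest difference of the comparison (log2 6.15 ± 0.32, 71.2-fold, limma adjusted p = 0.000282). In contrast, 160163_at read 711 and 879 against 119 and 83.9 (log2 -2.85 ± 0.25, adjusted p = 0.00364), and 94312_at gave a log2 difference of -2.28 ± 0.31 (adjusted p = 0.0273). The 3 probe sets thus place Pdxdc1 both higher and lower in C3H/HeJBir, and the gene has no single direction here. A probe set measures the RNA that hybridises to its probes, and the part of probe sequence differences between the strains in these values was not tested.

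Among 902 genes with several tested probe sets, 74 had at least 1 probe set at an unadjusted p under 0.05 and 16 had all of them there. In 2 genes probe sets passed that limit in opposite directions, Pdxdc1 and Noct, the clock-controlled nocturnin. For Noct 99535_at gave -1.61 ± 0.26 on the log2 scale (limma adjusted p = 0.0621) and another probe set 0.73 ± 0.27 (adjusted p = 0.757).

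Of the other probe sets higher in C3H/HeJBir, 95936_at has no gene symbol in the annotation used and read 33.6 and 41.5 against 994 and 809 (log2 4.23 ± 0.26, 18.7-fold, limma adjusted p = 0.00051). Cap1, an adenylyl cyclase-associated protein that turns over actin filaments, read 54.8 and 32.3 against 220 and 254 (log2 2.21 ± 0.26, 4.63-fold, adjusted p = 0.0164). Hebp1, a heme-binding protein, read 15.3 and 13.3 against 77.4 and 65.5 (log2 1.70 ± 0.25, 3.25-fold, adjusted p = 0.0420). In each of the 3 the strains did not overlap, as in 27.2% of all tested probe sets. The call of 95936_at passed in 22 of 22 alternatives, that of Cap1 in 15 of 21 and that of Hebp1 in 5 of 20. Cap1 did not pass without either C3H/HeJBir Il10-null pool or without the C57BL/6J sample 2 pool, and Hebp1 lost its call on leaving out any 1 of the 8 pools. Over the alternatives the limma adjusted p of Cap1 ran up to 0.185 and that of Hebp1 up to 0.27.

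The largest decrease in C3H/HeJBir was that of St3gal4, a sialyltransferase that caps galactose on mucins and other glycoproteins. In the Il10-null pools St3gal4 read 618 and 1020 in C57BL/6J and 12.7 and 41.1 in C3H/HeJBir (log2 -4.51 ± 0.43, a 22.8-fold lower level, limma adjusted p = 0.00595). The pairs gave -4.72 and -4.30, and the difference passed in 20 of the 21 alternatives in which it was tested. B4galnt2, which adds N-acetylgalactosamine to related glycan ends, lay just outside the threshold with 546 and 842 against 139 and 202 (96548_at, log2 -1.95 ± 0.30, adjusted p = 0.0537), and passed with the replicate block (adjusted p = 0.0224).

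Mtmr7, a myotubularin-related phosphatase of phosphoinositides, read 84.8 and 79.8 in C57BL/6J and 6.33 and 4.02 in C3H/HeJBir (log2 -2.53 ± 0.22, 5.76-fold lower, limma adjusted p = 0.00364). Ybx1, a protein that binds RNA and DNA through a cold-shock domain, read 4555 and 4688 against 1199 and 1021 (log2 -2.05 ± 0.22, 4.14-fold lower, adjusted p = 0.00964). Snhg6, a noncoding host transcript of a small nucleolar RNA, read 181 and 335 against 37.6 and 33.4 (log2 -2.47 ± 0.30, 5.54-fold lower, adjusted p = 0.0179). For Mtmr7 and Ybx1 the spread between the pools of a strain was small beside the strain difference. The C57BL/6J pools of Snhg6 lay further apart, and its pairs gave log2 differences of -1.98 and -2.96. A further probe set of Snhg6 was below the filter on low values.

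Ctsc, cathepsin C, which activates granule serine proteases, was read by 3 probe sets. The probe set 101020_at read 99.9 and 125 against 17.3 and 3.57 (log2 -2.59 ± 0.33, limma adjusted p = 0.0192), whereas 101019_at read 190 and 193 against 304 and 158 and showed no separation of the strains (log2 0.19 ± 0.32, adjusted p = 1.00). The third, 161251_f_at, was below the filter and read 53.4 and 53.1 against 2.71 and 2.54. Rgs5, a regulator of G protein signalling typical of pericytes, read 198 and 240 against 28.4 and 54.4 on 103294_at (log2 -2.17 ± 0.28, adjusted p = 0.0199). Its other probe set, 96180_at, gave -0.48 ± 0.32 and did not pass. Thus Ctsc and Rgs5 were called lower on 1 probe set each, without the same result on the others that were tested.

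Ergic1, a protein of the compartment between endoplasmic reticulum and Golgi, read 91.7 and 86.5 against 4.95 and 20.4 (log2 -2.16 ± 0.32, limma adjusted p = 0.0436), and with the replicate block its adjusted p was 0.0518. The unnamed probe set 96215_f_at read 1230 and 1009 in C57BL/6J and 235 and 271 in C3H/HeJBir (log2 -2.09 ± 0.24, 4.27-fold lower, adjusted p = 0.0124). The C57BL/6J Il10-null pools were the high ones, since the wild-type pools read 246 and 230 in C57BL/6J and 303 and 240 in C3H/HeJBir. For this probe set the strain difference in Il10-null exceeded that in wild type by -2.27 ± 0.34 (unadjusted p = 0.000129, limma adjusted p = 0.48).

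**Figure D2:**
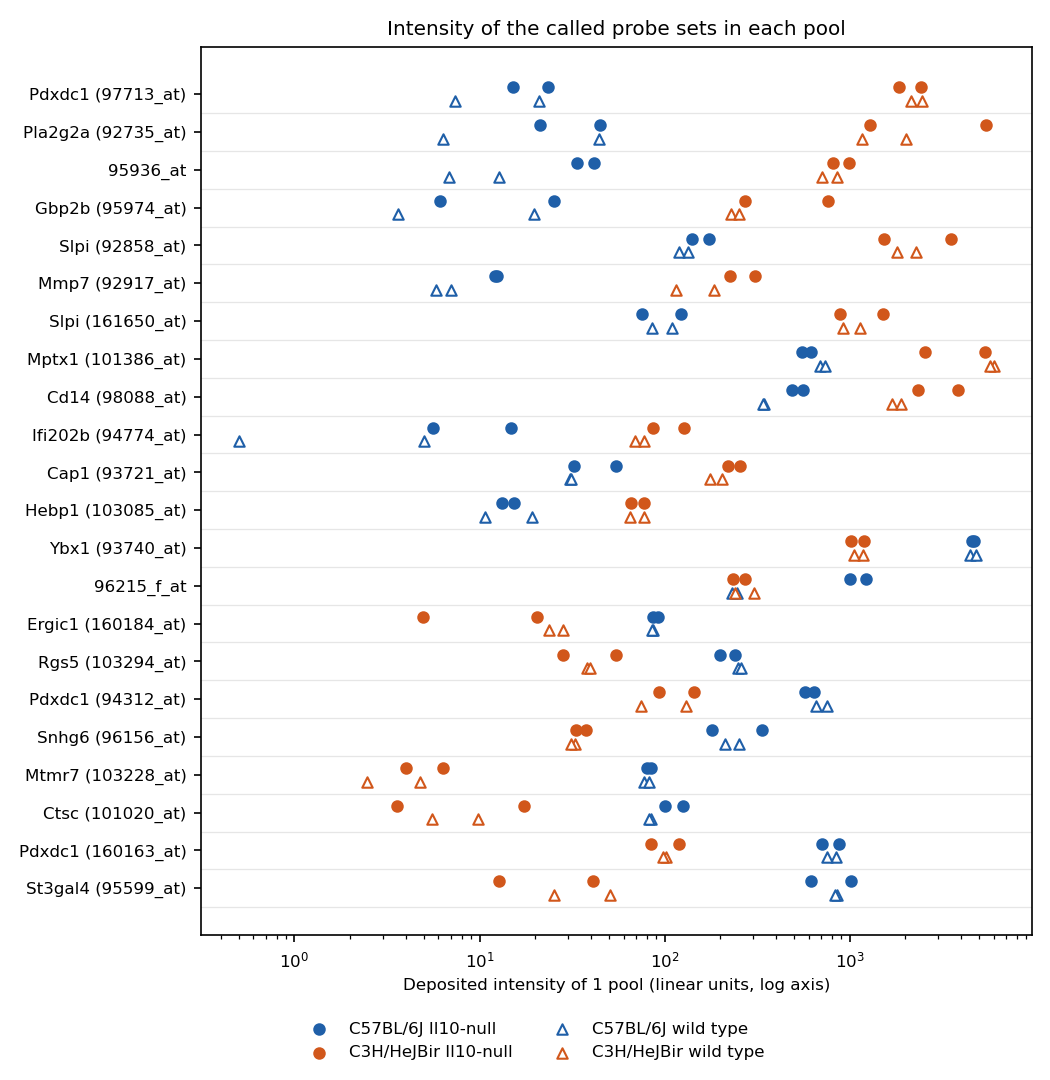
Deposited intensity of each pool (x axis, log scale) for the 22 probe sets called in Il10-null colon (y axis, ordered by log2 difference); circles are Il10-null pools, triangles wild-type pools, blue C57BL/6J and orange C3H/HeJBir. The circles of the strains are apart in each line, and the triangles follow them except at 96215_f_at, where the wild-type pools read 230 to 303 in both strains.

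Outside the threshold, 22 probe sets had an adjusted p from 0.05 to 0.1, of which 6 were higher and 16 lower in C3H/HeJBir. The following examples were chosen after their values were seen. Itln1, an intelectin that binds microbial sugars, read 49.9 and 44.5 against 261 and 1037 (log2 3.20 ± 0.53, limma adjusted p = 0.0621). Cx3cl1, the chemokine fractalkine, read 426 and 336 against 142 and 131 (log2 -1.40 ± 0.23, adjusted p = 0.0621). H2-Q4, a nonclassical MHC class I molecule, read 1620 and 2538 against 727 and 503 (log2 -1.73 ± 0.30, adjusted p = 0.0742). In each of these the strains were apart, as they were in 27.2% of all tested probe sets.

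Cbr3, a carbonyl reductase, read 162 and 191 against 21.9 and 25.1 (log2 -2.44 ± 0.40, limma adjusted p = 0.0621), and Apoc2, the activator of lipoprotein lipase, read 175 and 117 against 410 and 602 (log2 1.72 ± 0.30, adjusted p = 0.0784). Aadac, an arylacetamide deacetylase, read 197 and 262 against 52.6 and 82.4 (log2 -1.63 ± 0.30, adjusted p = 0.0892). Grb2, an adaptor of receptor tyrosine kinases, read 246 and 234 against 68.7 and 93.7 (log2 -1.46 ± 0.24, adjusted p = 0.0621). With the replicate block Cbr3 and Aadac passed (limma adjusted p = 0.0254 and 0.0491), and with the hybridisation day as a block Cbr3 did (0.0351). These 4 had the same direction in both pairs, as in the wild-type comparison.

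The strain differences of Il10-null colon were set against those of wild-type colon, which share no pool but share 1 estimate of the spread in the fit. In wild type, 30 probe sets were called (0.403%), 16 higher and 14 lower in C3H/HeJBir. Of the 22 calls in Il10-null, 20 were also called in wild type, which is 90.9% of the Il10-null calls and 66.7% of the wild-type calls, and all 20 had the same direction. The exceptions were Ergic1, with a wild-type log2 difference of -1.39 ± 0.32 (limma adjusted p = 0.23), and 96215_f_at, with 0.18 ± 0.24. The 30 wild-type calls had the same sign in Il10-null in every case, but not always a similar size. Among them Gas5 had a log2 difference of -3.43 ± 0.33 in wild type and -0.07 ± 0.33 in Il10-null. Of the 385 probe sets at an unadjusted p under 0.05 in Il10-null, 87.8% had the same sign in wild type, and over all tested probe sets 58.6% did.

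St3gal4 read 858 and 836 against 25.4 and 50.8 in wild type, a log2 difference of -4.17 ± 0.43 where Il10-null had -4.51. Mmp7 read 7.03 and 5.84 against 184 and 115 in wild type (log2 3.17 ± 0.28), and Cd14 read 344 and 341 against 1696 and 1881 (log2 2.34 ± 0.28). Pla2g2a read 44.3 and 6.38 against 2013 and 1172 (log2 5.64 ± 0.74) and Gbp2b 19.6 and 3.62 against 229 and 251 (log2 3.56 ± 0.56). Over the 20 called probe sets with a symbol, the strain differences of Il10-null and wild type lay within 0.77 of each other on the log2 scale, and the smallest unadjusted p of that difference was 0.126. The 2 called probe sets without a symbol differed more: 95936_at read 12.8 and 6.84 against 704 and 852 in wild type (log2 5.25 ± 0.26), with a difference of the strain effects, Il10-null minus wild type, of -1.02 ± 0.36 (unadjusted p = 0.0221, limma adjusted p = 1.00), and 96215_f_at is given above. Such a p does not show that the effects are equal: for Gbp2b the difference was 0.67 ± 0.79 and for Pla2g2a 0.33 ± 1.05.

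**Figure D3:**
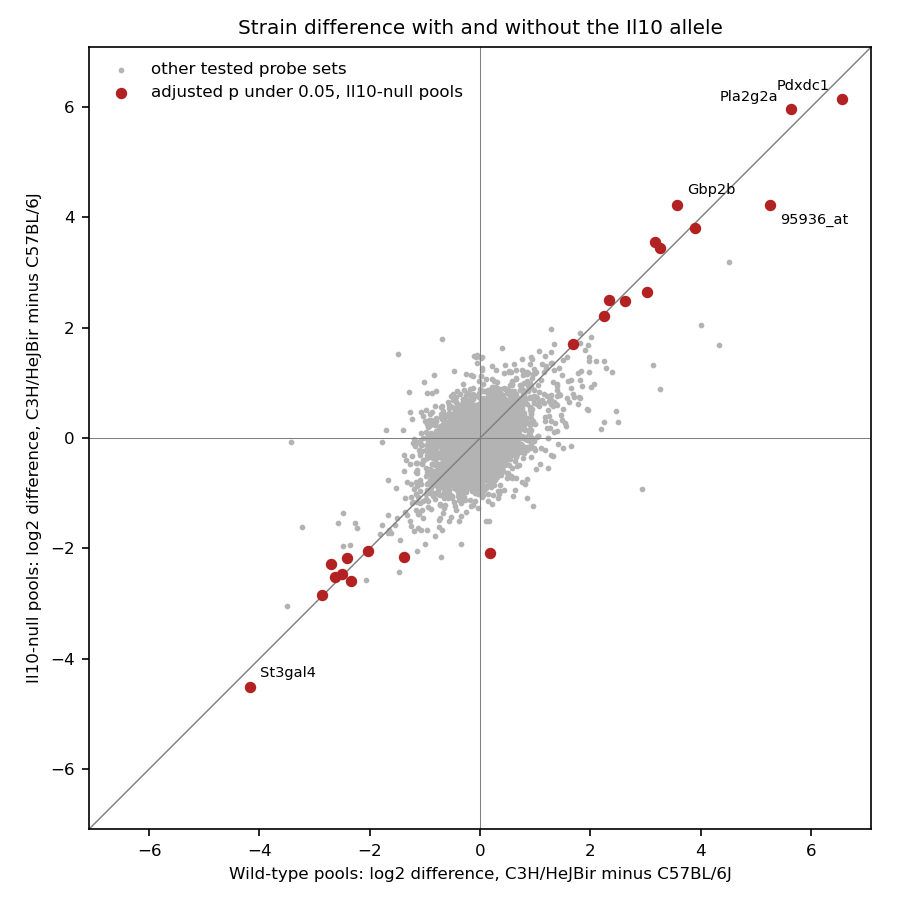
Log2 strain difference in wild-type pools (x axis) against Il10-null pools (y axis), C3H/HeJBir minus C57BL/6J, 1 point per tested probe set, with a line of equality. Of the 22 probe sets called in Il10-null (red), 21 have the same sign on both axes, and 96215_f_at lies at 0.18 on the wild-type axis and -2.09 on the Il10-null axis.

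Tested directly, the difference between the strain effects gave 0 of 7453 probe sets at an adjusted p under 0.05 (0%) in limma, and 112 at an unadjusted p under 0.05 (1.5%), with a smallest adjusted p of 0.48. The genes with the smallest p, 5 in each direction, are given as a description. Gas5, a spliced noncoding transcript with small nucleolar RNAs in its introns, read 998 and 1351 in C57BL/6J Il10-null and 855 and 1440 in C3H/HeJBir Il10-null, where the strains overlapped. In wild type it read 1065 and 1362 against 86.4 and 120. The difference of the strain effects was 3.36 ± 0.46 (unadjusted p = 7.2e-05, limma adjusted p = 0.48), and the C3H/HeJBir wild-type pools were the low ones.

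Gga2, an adaptor of Golgi vesicles, had strain differences of opposite sign in the genotypes, with 69.0 and 72.8 against 22.8 and 33.3 in Il10-null and 18.8 and 14.6 against 46.7 and 31.8 in wild type (difference -1.93 ± 0.36, unadjusted p = 0.000665). Dusp2, a phosphatase of MAP kinases, read 13.3 and 37.6 against 162 and 70.1 in Il10-null and 93.5 and 120 against 78.3 and 48.1 in wild type (difference 2.47 ± 0.64, unadjusted p = 0.00448). Lgals3bp, a secreted galectin-binding glycoprotein, read 549 and 626 against 506 and 435 in Il10-null and 363 and 257 against 939 and 608 in wild type (difference -1.59 ± 0.41, unadjusted p = 0.00446). None of the 10 genes shown had an adjusted p under the threshold in limma. Further probe sets among them were those of Qsox1, Sec63 and Fez1 with positive differences and of Chrne, Vcam1 and Gnb4 with negative ones.

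**Figure D4:**
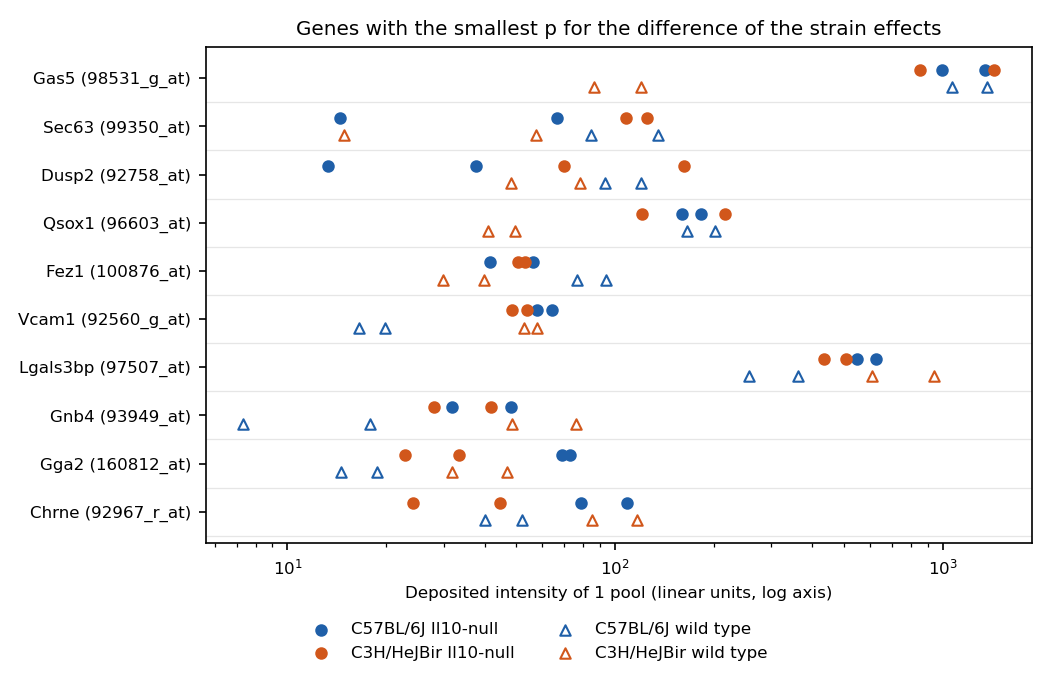
Deposited intensity of each pool (x axis, log scale) for the 10 genes with the smallest unadjusted p for the difference of the strain effects, 5 in each direction (y axis); circles are Il10-null, triangles wild type, blue C57BL/6J, orange C3H/HeJBir. For Gas5 the C3H/HeJBir wild-type triangles at 86.4 and 120 stand apart from the other 6 pools, and no gene shown passed the adjusted threshold.

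Gene lists described the rest of the comparison. The 37 lists held 699 symbols, the array 561 of them and the tested set 421, and 30 lists had at least 5 tested genes. List medians are read beside the median of -0.02 over all tested probe sets, and calls beside the 0.295% given above. Counts of positive signs in the fit are read beside the 47.0% over all tested probe sets. In 18 of the 30 lists the median had opposite signs in the sample 1 and sample 2 pairs. Summed intensities are taken over all genes of a list on the array, tested or not. In a pool of whole colon, fewer cells of a type and less RNA per cell cannot be told apart.

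Antimicrobial and acute-phase products had a median log2 difference of 0.76 over 17 tested genes, beside -0.02 over all tested probe sets. The sign was positive for 17 of 17 in the fit and in the sample 1 pair, and for 13 of 17 in the sample 2 pair. Of these, 2 were called higher (Pla2g2a and Mptx1), 0 were called lower and 15 did not pass, and 7 were higher at an unadjusted p under 0.05. Over all tested probe sets 2.03% were higher at that limit, and 47.0% had a positive sign in the fit. The Il10-null pairs gave medians of 1.46 and 0.14, and the strain median of the list in wild type was 0.53. Among its members, S100a8, a calprotectin subunit of neutrophils, read 34.6 and 23.6 against 581 and 9.53, with 1 high pool, sample 1 of C3H/HeJBir. Without that pool the median of the list was 0.33. The summed intensity of the 21 list genes on the array was 33757 and 41647 in C57BL/6J and 69292 and 56773 in C3H/HeJBir. The strains did not overlap in this sum, in which bright genes weigh most. They did not overlap in wild type either, with 29809 and 33246 against 54195 and 49178.

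Microbe sensing genes had a median of 0.24 over 8 tested genes, with 6 positive, 2 negative, 1 called higher (Cd14) and 7 not passing. The median was 0.64 in the sample 1 pair, with 7 of 8 positive, and 0.10 in the sample 2 pair, with 4 of 8. Lbp, which carries lipopolysaccharide to Cd14, read 72.5 and 31.2 against 218 and 102 and did not pass (log2 1.43 ± 0.54, limma adjusted p = 0.794), although both C3H/HeJBir pools were the higher. Traf6, a signal transducer below Toll-like receptors, read 98.3 and 122 against 211 and 169 (log2 0.73 ± 0.25, adjusted p = 0.685). The list of proteases and inhibitors had a median of 0.14 over 16 tested genes, with Slpi and Mmp7 called higher and 14 not passing.

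Genes induced by interferon gamma had a median of 0.43 over 15 tested genes, with 14 positive, but the pairs disagreed. The median was 1.73 in the sample 1 pair, where 15 of 15 were higher in C3H/HeJBir, and -0.71 in the sample 2 pair, where 1 of 15 was. Only Gbp2b was called, and 14 did not pass. Igtp, an immunity-related GTPase, read 96.3 and 201 against 663 and 154 (limma adjusted p = 1.00), and Iigp1, of the same family, 163 and 670 against 932 and 287 (adjusted p = 1.00). In both, the sample 1 C3H/HeJBir pool was the highest and the sample 2 C3H/HeJBir pool lay within or below the C57BL/6J range. Without the sample 1 C3H/HeJBir pool the median of the list was -0.17.

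MHC class II genes showed the same split, with a median of 0.46 over 8 tested genes, 1.67 in the sample 1 pair and -0.73 in the sample 2 pair, and 0 called. H2-Aa, a chain of the class II molecule, read 517 and 1975 against 3834 and 1203 (limma adjusted p = 1.00). For class I molecules and antigen processing the genes had a median of 0.24 over 15 tested genes (0.75 and -0.35 in the pairs, 0 called), and genes induced by type I interferon 0.27 over 15 (0.82 and -0.30, 0 called). Ifi202b was called among the 2 tested Ifi200 genes. The Il10-null pools of C3H/HeJBir differed from each other in these lists. For the interferon gamma list the median log2 deviation of its genes from their means over the arrays was 1.67 and -0.04 in them. In C57BL/6J Il10-null it was -0.20 and 0.66. The wild-type pools lay closer together, with -0.06 and -0.1 in C3H/HeJBir and -0.92 and -0.97 in C57BL/6J. Strain medians in wild type were 0.85 for the interferon gamma list and 0.68 for the type I interferon list. For MHC class II and class I they were 0.64 and 0.24.

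Immune cell lists were read for what else the pools held. B cell and plasma cell genes had a median of 0.17 over 13 tested genes (0.55 and -0.22 in the pairs, 0 called), and their summed intensity was 2439 and 3313 in C57BL/6J and 8220 and 3025 in C3H/HeJBir. Macrophage and dendritic cell genes had 0.23 over 12, with Cd14 called, and summed to 4529 and 5599 against 8961 and 7359. T cell and NK cell genes had 0.07 over 5 and neutrophil genes 0.52 over 5, with 0 called in each, and the neutrophil sum was 1096 and 1451 against 3424 and 1418. The defining markers of T cells were dim, with Cd2 at 7.37 to 14.8 over the Il10-null pools. The sample 1 C3H/HeJBir pool had the highest sum in each of these 4 lists, and the part of these cells in the strain differences was not tested.

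Epithelial lists had medians from -0.24 to -0.03. Goblet cell products had a median of -0.13 over 15 tested genes, with St3gal4 called lower and 14 not passing. Atoh1, the transcription factor of secretory cells, read 104 and 44.9 against 14.1 and 10.7 and did not pass (log2 -1.78 ± 0.53, limma adjusted p = 0.525). Absorptive colonocyte genes had a median of -0.03 over 13 (0 called), which turned to 0.01 with arrays scaled to a common median. Enteroendocrine genes had -0.24 over 12 (0 called), and Pam, the enzyme that amidates peptide hormones, read 425 and 218 against 73.7 and 6.35 (log2 -3.04 ± 0.66, adjusted p = 0.175), with the strains apart but the C3H/HeJBir pools far from each other.

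In lists of stromal and neighbouring tissue the medians depended on the pair. Smooth muscle genes had a median of -0.51 in the sample 1 pair and 0.44 in the sample 2 pair over 11 tested genes, fibroblast and matrix genes -0.58 and 0.57 over 14, and enteric neuron and glia genes -1.13 and -0.17 over 5, with 0 called in each. Exocrine pancreas genes had 0.33 and -0.27 over 10 (0 called), and their level was higher in both sample 1 pools (0.89 in C57BL/6J and 1.40 in C3H/HeJBir) than in both sample 2 pools (-0.55 and -0.70). Prss2, a trypsinogen, read 321 and 19.7 in C57BL/6J and 1107 and 13.9 in C3H/HeJBir. The sample number, rather than the strain, separated this list. Adipocyte genes had a median of -0.25 over 7 (0 called).

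**Figure D5:**
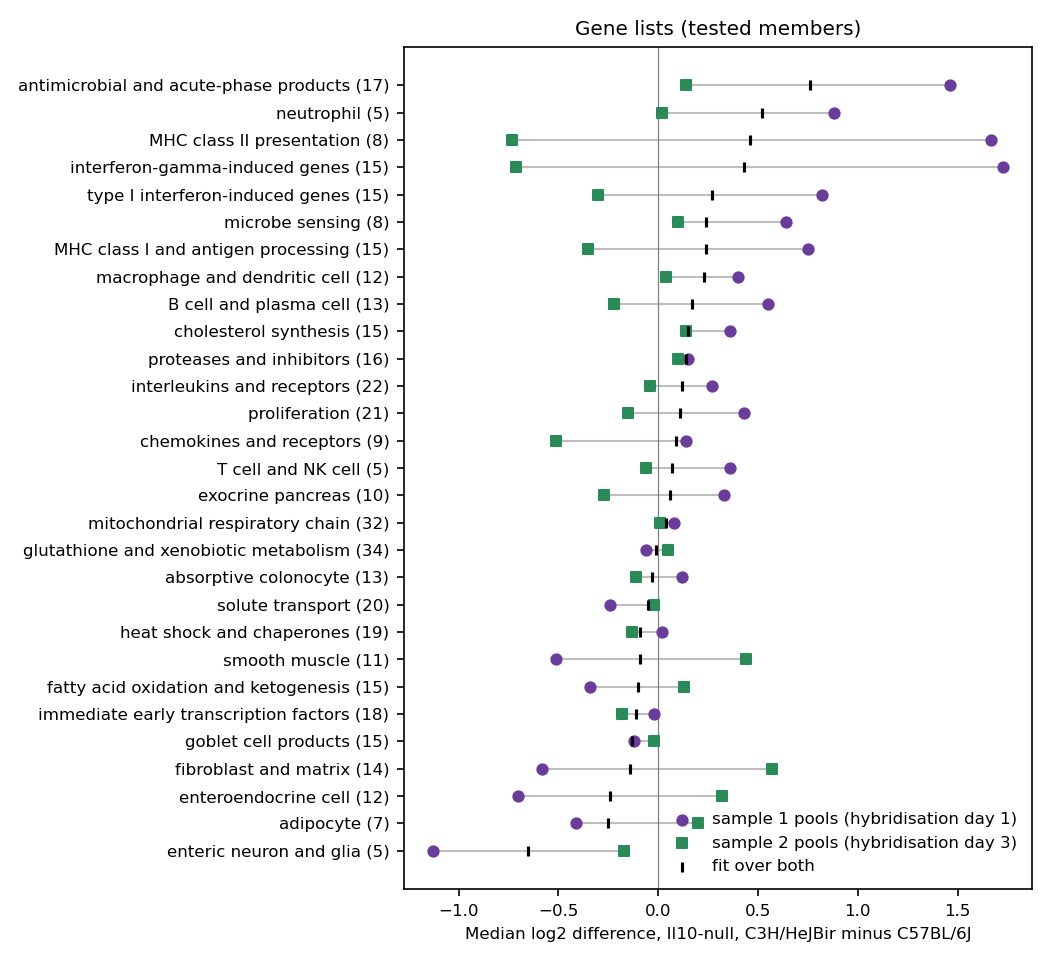
Median log2 strain difference in Il10-null colon (x axis) of the gene lists with at least 5 tested genes (y axis, tested genes in brackets). Circles are the sample 1 pools, squares the sample 2 pools and ticks the fit over both. The list of genes known to differ between the strains' genomes, with a median of 2.49, is left out. The interferon gamma list lies at 1.73 in the sample 1 pools and -0.71 in the sample 2 pools, whereas the antimicrobial list is above 0 in both (1.46 and 0.14).

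Signalling and metabolic lists had medians close to that of all tested probe sets. Chemokines and receptors had 0.09 over 9 tested genes, interleukins and receptors 0.12 over 22, proliferation genes 0.11 over 21, cholesterol synthesis 0.15 over 15, fatty acid oxidation and ketogenesis -0.10 over 15 and solute transport -0.05 over 20, with 0 called in each. The respiratory chain had 0.04 over 32, which turned to -0.04 after quantile normalization, and glutathione and xenobiotic metabolism -0.01 over 34, which turned to 0.03 with a common median, both with 0 called. Cyp3a13, a cytochrome of drug metabolism, read 915 and 1118 against 167 and 440 (log2 -1.85 ± 0.41, limma adjusted p = 0.194). Il18, a cytokine of epithelium, read 289 and 402 against 574 and 634 (log2 0.80 ± 0.24, adjusted p = 0.541). In both the strains were apart, as in 27.2% of all tested probe sets, but neither passed.

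Immediate early transcription factors had a median of -0.11 over 18 tested genes and heat shock proteins and chaperones -0.09 over 19, with 0 called in each. Btg2, an antiproliferative gene induced early after stimulation, read 693 and 748 against 325 and 359 (log2 -1.05 ± 0.23, limma adjusted p = 0.182). Hspa1a, an inducible heat shock protein, read 240 and 182 against 108 and 87.3 (log2 -1.02 ± 0.28, adjusted p = 0.393). These 2 genes had nearly equal differences in the 2 pairs (-1.07 and -1.04 for Btg2, -1.08 and -0.97 for Hspa1a) and did not pass. The lists of small intestinal and Paneth cells, endothelium, mast cells and eosinophils and erythrocytes had 3 tested genes each, with 0 called.

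Genes known to differ between the genomes of the strains were read as a further list, of which 5 of 7 were tested and 3 were called higher: Gbp2b, Pla2g2a and Ifi202b. Glo1, glyoxalase, which is duplicated in C3H mice, read 385 and 538 against 1149 and 1218 on 93269_at (log2 1.36 ± 0.26, limma adjusted p = 0.118) and gave 0.93 ± 0.21 on 93268_at (adjusted p = 0.212). Both probe sets were higher in both C3H/HeJBir pools, and neither passed. Nnt, the mitochondrial transhydrogenase, read 159 and 94.8 against 82.8 and 89.2 (log2 -0.47 ± 0.36, adjusted p = 1.00), where C57BL/6J was not the lower strain, while in wild type it read 42.3 and 39.7 against 143 and 67.8. The genes Cd14, Gbp2b and Pla2g2a were put forward by the published study on these same samples, so that their calls are not independent evidence of their direction.

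The targeted allele lies on chromosome 1, which held 4 of the 22 calls (Snhg6, Rgs5, Ifi202b and Mptx1). These were among 354 tested probe sets, or 1.13% against 0.295% over all. Chromosome 16 had a higher share, 3 of 218 or 1.38%, all on probe sets of Pdxdc1, and chromosome 4 had 0.739%. With chromosome 1 left out, 18 probe sets were called. The share of tested probe sets at an unadjusted p under 0.05 was 5.37% on chromosome 1, 7.94% on chromosome 17 and 2.09% on chromosome X, against 5.17% over all. The 4 calls of chromosome 1 were also called in wild type with the same direction. Gas5 and Qsox1, listed above for the difference of the strain effects, also lie on chromosome 1, and neither passed the adjusted threshold for that difference. Qsox1 read 160 and 183 against 121 and 216 in Il10-null and 202 and 166 against 41.1 and 49.6 in wild type. In both genes the C3H/HeJBir wild-type pools were the low ones.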

How the data were processed

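Each of 8 pools of total colon RNA was hybridised to 1 Affymetrix MG_U74Av2 array. The deposited values are linear intensity, 1 number per probe set and array, between 0.03 and 12860. The authors had scaled the arrays alike, as the values show, since means trimmed by 2% differed by a ratio of 1.009. The sources used here give no summary algorithm, scaling target or detection calls. Groups came from the sample titles.

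Values were taken as log2(intensity + 11.07), the 20th percentile. The 40th percentile of the probe set means, 37.0, was the lower limit for testing, and 7453 of 12422 probe sets (5688 genes) reached it. Of all probe sets, 10833 carried 1 symbol, 396 several and 1193 none, and 10817 were matched to RefSeq. The model of 4 group means used limma 3.58.1 under R 4.3.3 (4 residual and 4.23 prior degrees of freedom), with two-sided p values, Benjamini-Hochberg adjustment over all of these probe sets and a threshold of 0.05. The fit was tested on simulated data.

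The sample numbers paired the pools: deviations from the group means correlated by 0.198 to 0.332 across probe sets in all 6 pairs of groups, with 0.198 for the Il10-null groups, and a replicate block on the number served as an alternative. The labels call sample 2 a replicate that is independent of sample 1.

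Named genes were the called genes with 1 symbol and no overlap of the strains, up to 15 in each direction, up to 4 members of a list by size, up to 5 genes in each direction for the difference of the strain effects, and Il10, Cd14, Gbp2b, Pla2g2a, Nnt, Glo1, Xist and Eif2s3y, with further probe sets of a gene where they disagreed. In a list, a gene was represented by its probe set of highest mean. The comparison, the gene lists and the rules were chosen with earlier results of these data known. Alternatives changed the pseudocount, filter, scaling, moderation, block, pools and threshold.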

Additional observations from a re-analysis of the deposited data

How the results depend on the processing

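Of the strain differences of the called probe sets, 455 values were recomputed under the alternatives, of which 320 stayed on the same side of the threshold, 135 no longer passed and 0 changed sign. The count of 22 in Il10-null colon became 45 with a pseudocount at the 50th percentile, 14 without a filter, 45 with trend and robust moderation, 14 with 1 averaged value per gene and 44 at a threshold of 0.1. It was 12 with the 4 Il10-null pools alone, 3 with those pools and a replicate block, and 6 with the hybridisation day as a block. With the replicate block in the fit of all pools it was 23, of which 20 were among the 22, the 2 lost were Ergic1 and Gbp2b, and the 3 gained were Cbr3, B4galnt2 and Aadac. Leaving out 1 pool at a time gave 4 to 34. In wild type the count of 30 became 53 with a pseudocount at the 50th percentile, 51 with trend and robust moderation, 49 with the 4 pools alone, 46 at a threshold of 0.1 and 2 to 39 without 1 pool. The cause of these changes was not tested. The smaller and blocked fits also had fewer pools or degrees of freedom, and the part of this in the counts was not tested either. The difference of the strain effects gave 0 calls under every alternative run for it. Of 660 list medians, 626 moved by less than the spread between the pairs and 34 by more. With 2 pools per group the precision is limited by the number of arrays, and detection calls are not used here, so how far dim probe sets lie above background is unknown.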
